A study of Mus musculus with 8 samples.

Results

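The lymphoid lineage transcripts described here are 29 genes of 53715 in the count files, chosen by symbol and matched to the gene identifiers through a GENCODE mouse annotation. Of these, 12 mark early lymphoid priming (Dntt, Il7r, Rag1, Rag2, Ccr9, Satb1, Il12rb1, Bcl11a, Ighm, Igll1, Lsp1 and Mef2c). The B lineage has 10 (Cd79a, Cd79b, Ms4a1, Ebf1, Pax5, Vpreb1, Vpreb3, Cd22, Blk and Mzb1), the T lineage 5 (Cd3e, Cd3d, Cd3g, Lck and Cd2) and the natural killer (NK) lineage 2 (Nkg7 and Il2rb). They were measured by RNA sequencing of haematopoietic stem cells (HSCs), sorted from mouse bone marrow by the LSK gate (no lineage markers, with Sca-1 and Kit) as CD48- CD150+ cells. 4 libraries came from Gata2 wild-type mice and 4 from mice labelled Gata2; Mx1-Cre heterozygote, 1 mouse per library, and the design names wild type and heterozygote as the comparison. All mice were 8 to 12 weeks old and had received 6 doses of pIpC, a double-stranded RNA mimic that induces interferon and thereby the recombinase Mx1-Cre, which is not restricted to blood cells. The sources used here do not say whether wild-type mice carried Mx1-Cre, so an effect of the transgene and one of the Gata2 allele cannot be told apart. Nor do they give strain or littermate status.

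Lymphocytes arise from stem cells through multipotent progenitors in which lymphoid genes are first transcribed at low level, a state called lymphoid priming. Commitment then depends on the interleukin-7 receptor, on the recombinase made of Rag1 and Rag2 that assembles antigen receptor genes, and on regulators such as Ebf1 and Pax5 in B cells, while mature B, T and NK cells carry antigen receptor chains, their signalling subunits and cytotoxic proteins. Long-term stem cells of the gate used here are known for little transcription of the lineage-restricted genes, and several genes first described in lymphocytes, such as Mef2c and Bcl11a, are also used by other blood cells.

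Gata2, the zinc-finger factor whose allele defines the groups, was not lower under the heterozygote label. Wild-type replicates 1 to 4 gave 30.0, 45.2, 29.1 and 38.5 CPM, a gene's count relative to the TMM-scaled total of its library. The 4 heterozygote-labelled libraries gave 35.4, 61.8, 36.7 and 45.1 CPM, so the groups overlapped, with a log2 fold change of 0.33 (SE 0.23, edgeR adjusted p = 0.858). Counts cover all exons, so a transcript that lost some of them would still be counted, and each direction below follows labels that the Gata2 level did not bear out. Libraries held 16750778 to 22861884 fragments on genes, and Xist and Y-linked counts placed 2 female mice (replicates 1 and 4) and 2 male mice (replicates 2 and 3) in each genotype. Among 13992 genes tested with edgeR, 0 passed an adjusted p of 0.05 (0% in either direction). An unadjusted p under 0.05 was reached by 792 genes (5.66%), of which 331 (2.37%) were higher and 461 (3.29%) lower under the heterozygote label. DESeq2 called 29 of 13968 genes (0.208%) and limma-voom called 0. Of 12 stem cell markers, among them Ly6a and Tek, 11 were present in every library, and wild-type replicate 4 alone lacked the remaining marker.

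Most of the lineage-restricted members gave few or no fragments, and a small number of members were abundant. In all 8 libraries 8 members were at 0, namely Il7r, Rag1, Ccr9 and Igll1 of the early list and Pax5, Cd3e, Cd3g and Il2rb of the mature lists. A further 12 members were found in some libraries, and 9 were found in every library (Satb1, Il12rb1, Bcl11a, Ighm, Lsp1, Mef2c, Cd79b, Lck and Nkg7). With at least 3 fragments required in every library the 9 became 7, without Il12rb1 and Ighm, and a minimum of 10 also left 7. The 3 most counted, Mef2c, Nkg7 and Bcl11a, took 79.7% of all member fragments, and with Lsp1 and Cd79b the 5 highest took 97.8%. A count of 0 allows up to 3 fragments per library, which corresponds to 0.124 to 0.183 CPM depending on depth and covers counting error only.

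**Figure D1:**
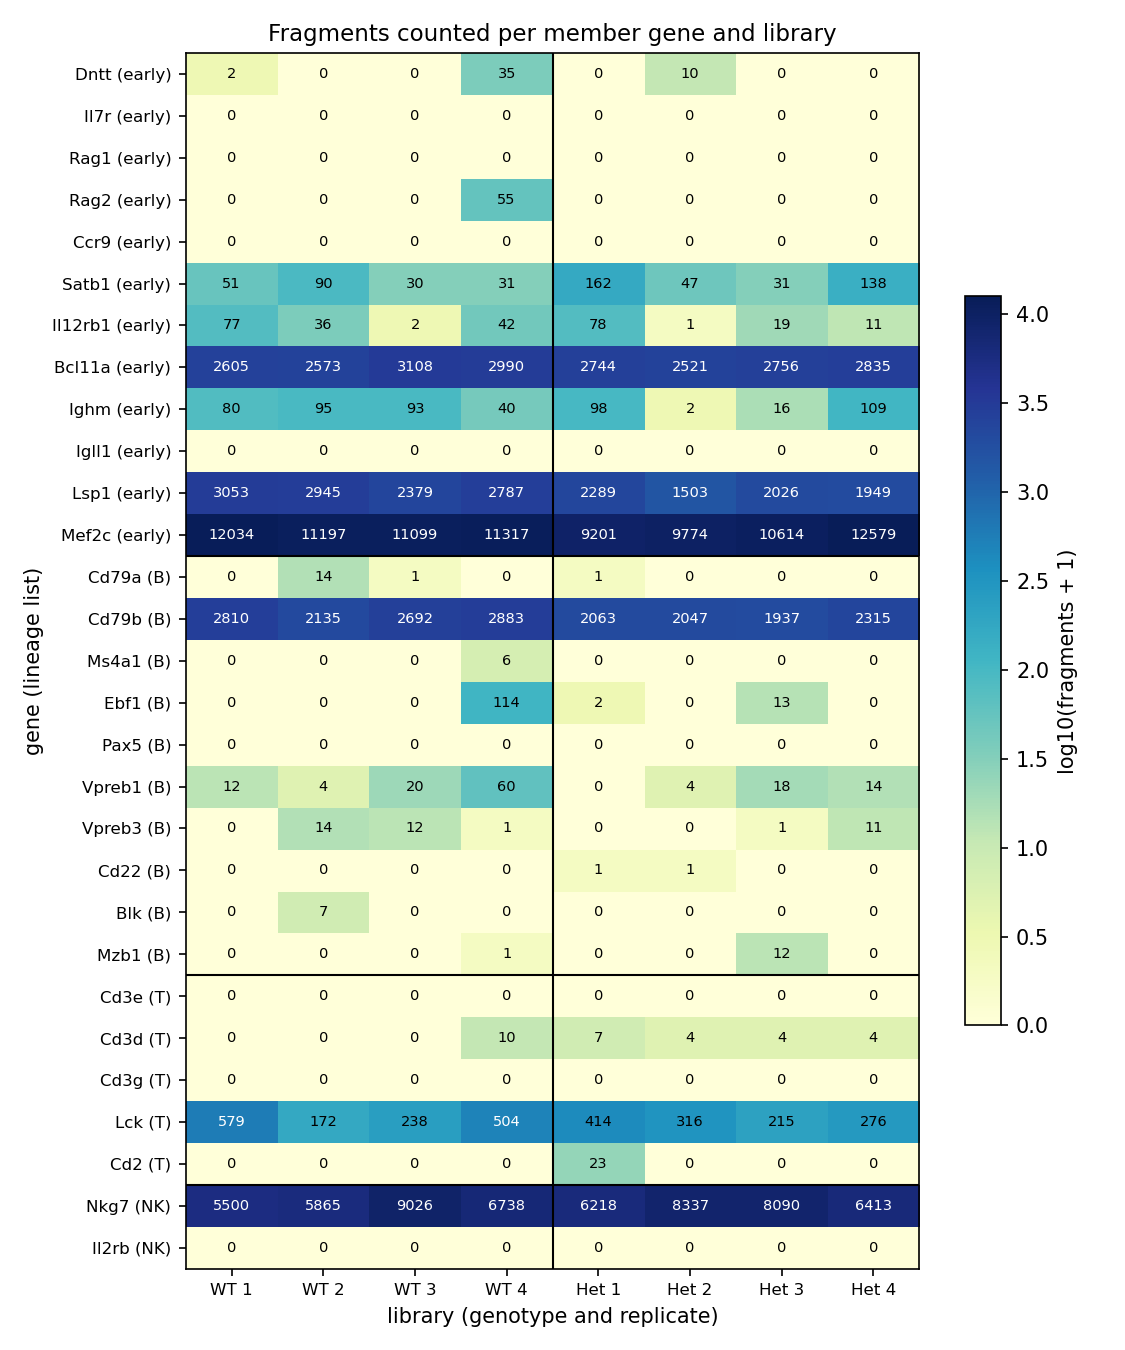
Fragments counted for each of the 29 members (rows, grouped by lineage list) in each of the 8 libraries (columns, WT is wild type and Het the heterozygote label), with colour on a log10(fragments + 1) scale. The 8 rows of zeros contrast with Mef2c, Nkg7, Lsp1, Bcl11a and Cd79b, the 5 genes dark across every library, and the isolated coloured cells of wild-type replicate 4 include Rag2 and Ebf1.

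Compared per length of the summed exons (FPKM), the order of the members did not follow early against mature. In wild-type libraries Nkg7, a membrane protein of cytotoxic granules, was highest at 338.9 ± 94.6 FPKM (SD, n = 4), above 99.2% of 21890 protein-coding genes. Cd79b, a signalling chain of the B cell receptor, followed at 83.0 ± 8.09 FPKM. The early-list transcription factor Mef2c stood at 32.9 ± 1.48 FPKM and the actin-binding protein Lsp1 at 24.4 ± 2.35 FPKM. Each of these 4 genes was separated from the next over all 8 libraries, since Nkg7 did not fall below 248.6, Cd79b lay between 72.1 and 89.9, Mef2c between 29.3 and 40.9 and Lsp1 between 17.8 and 27.6 FPKM. Bcl11a, a zinc-finger repressor needed for lymphoid development, came next at 9.72 ± 1.28 FPKM, and Lck, the kinase that phosphorylates T cell receptor subunits, at 5.62 ± 2.64 FPKM. The highest Lck library (8.166 FPKM) lay just under the lowest Bcl11a library (8.168 FPKM), so the ranges of these neighbours did not overlap and almost met.

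Below Lck the levels per length fell within each other's spread. Ighm measured 1.87 ± 0.697 FPKM and Vpreb1 1.40 ± 1.42 FPKM in wild-type libraries (SD, n = 4), and these were the last of 8 members to average at least 1 FPKM. Without wild-type replicate 4 the number was 7. Il12rb1 averaged 0.418 FPKM and Satb1 0.122 FPKM, although Satb1 was detected in every library. The Satb1 gene model sums 19027 bases of exons, which lowers any level per length. The order of the first 6 was kept when any wild-type library was left out.

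**Figure D2:**
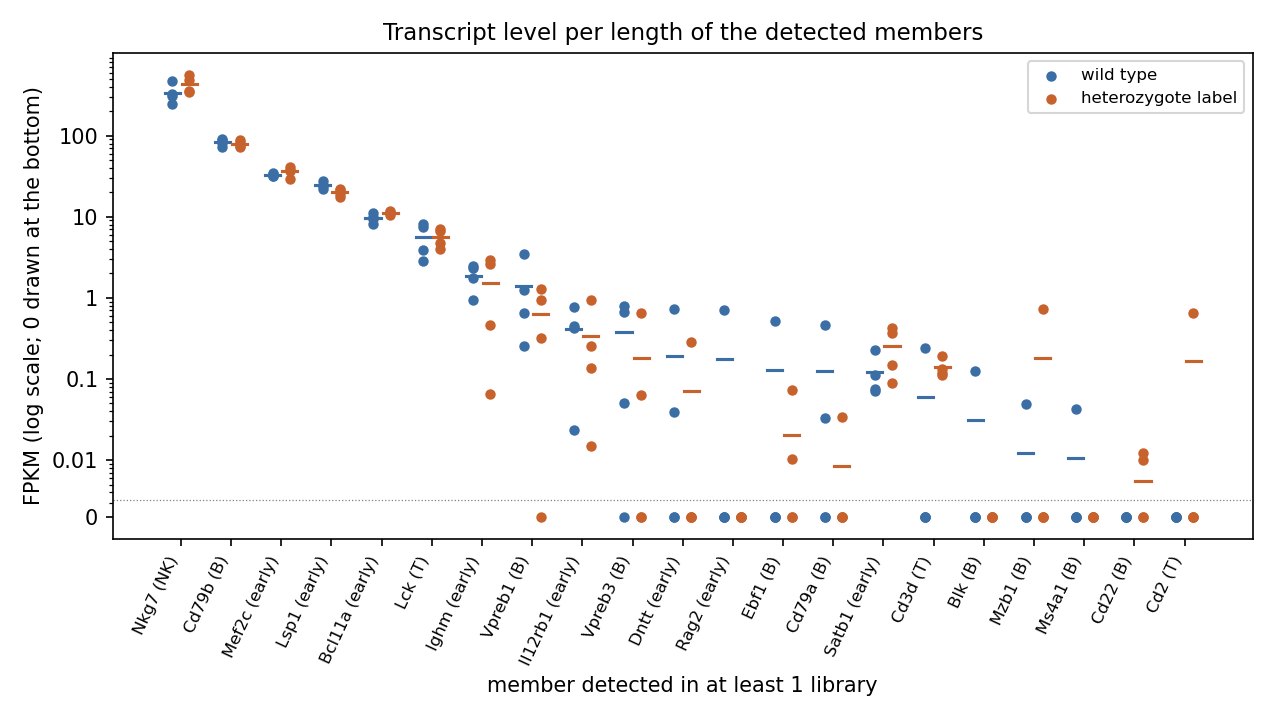
Level per length (FPKM, log axis, with 0 drawn below the dotted line) of the 21 members detected in at least 1 library, with 1 point per library, blue for wild type, orange for the heterozygote label and bars for the means. Nkg7 and Cd79b of the mature lists lie above every early-list gene, and from Ighm rightward the points of neighbouring genes overlap.

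The most abundant member, Nkg7, overlapped between genotypes. The gene (ENSMUSG00000004612.9) spans chr7:43437073-43438249 on the plus strand of GRCm38. In replicate order the wild-type libraries gave 227, 284, 431 and 296 CPM, those under the heterozygote label 311, 510, 441 and 328 CPM. Wild-type replicate 3 lay above 2 of the heterozygote-labelled libraries and the other 3 wild-type libraries lay below all of them. Means were 310 ± 86.5 and 397 ± 94.5 CPM (SD, n = 4 each), a log2 fold change of 0.36 (SE 0.22, 95% interval -0.13 to 0.84, edgeR adjusted p = 0.850), with an exact two-sided permutation p of 0.143. It did not pass. Without wild-type replicate 3 the value was 0.56 (edgeR unadjusted p 0.0168, adjusted p 0.276), without heterozygote-labelled replicate 2 it was 0.22 (unadjusted p 0.360) and without wild-type replicate 1 it was 0.25 (unadjusted p 0.285). Leaving out wild-type replicate 3 also raised the share of all genes with an unadjusted edgeR p under 0.05, from 5.66% to 12.5%. Il2rb, the beta chain of the receptors for interleukin-2 and interleukin-15 and the other NK member, had 0 fragments in all 8 libraries.

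Most other NK marker genes gave no fragments. From the list of other mature lymphocyte markers, the NK and cytotoxic genes Ncr1, Klrd1, Klrk1, Gzma, Prf1, Eomes and Tbx21 were at 0 in all 8 libraries, and Gzmb had 29 fragments in wild-type replicate 4 alone. Klrb1c, the NK receptor NK1.1, gave 134, 94, 127 and 84 fragments in the wild-type libraries and 2, 47, 0 and 23 under the heterozygote label. Every heterozygote-labelled library was below every wild-type library, as held for 252 (1.80%) of the genes tested in that direction and for 483 (3.45%) in either. Klrb1c differed by -2.26 on the log2 scale (SE 1.12, edgeR unadjusted p 0.0709, adjusted p 0.850). The chemokine gene Ccl5, also of cytotoxic cells, differed by 0.27 on the log2 scale and did not pass.

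The region before the RefSeq start of Nkg7 is printed because Nkg7 was the most abundant member per length. That region ends at 43437137, past the GENCODE start of the gene at 43437073. The regions before the neighbours Vpreb1 and Igll1 and before Cd3d and Cd3g are printed further on. They are shown because 1 gene of each pair had fragments and the other had none. RefSeq promoter entries (build GRCm38.p6) matched 20 of the 29 members, in 28 windows of 250 bases before an annotated start. Both strands were searched for CAGGTG (an E-box of E proteins such as E2A) and for GAGGAA (a form of the Ets site). They were also searched for AGATAA (a form of the GATA site) and for the palindrome bound by early B cell factors (EBF). Other forms of these sites were not searched, so a window without a match may still hold them. CAGGTG was found in 10 member windows (35.7%) against 17.2% of all 32851 windows, GAGGAA in 12 (42.9%) against 23.3%, AGATAA in 2 (7.14%) against 9.99%, and the EBF palindrome in 1 (3.57%, Cd22) against 0.779%. The 12 windows with GAGGAA belong to 9 genes, and overlapping Satb1 windows share a match, so windows are not independent. A match is a description of the letters and not of binding. Member windows held a median of 3.5 CpG dinucleotides against 6 over all windows. Capitals in the sequences mark such matches on either strand, and the Nkg7 window chr7:43436888-43437137 (plus strand, 2 CpG) held none:
Nkg7: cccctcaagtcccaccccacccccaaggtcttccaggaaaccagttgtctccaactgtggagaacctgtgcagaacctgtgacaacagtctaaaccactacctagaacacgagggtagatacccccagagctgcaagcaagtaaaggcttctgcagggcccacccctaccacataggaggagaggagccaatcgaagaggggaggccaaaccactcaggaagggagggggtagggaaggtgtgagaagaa

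Cd79b averaged 119 ± 11.6 CPM in wild-type cells (SD, n = 4), while its obligate partner Cd79a was nearly absent. Cd79a and Cd79b encode the heterodimer that carries the signal of the B cell receptor to the cell interior. Cd79b (ENSMUSG00000040592.11, chr11:106311341-106314762, minus strand) gave 116, 103, 129 and 127 CPM in the wild-type libraries and 103, 125, 106 and 118 CPM under the heterozygote label. The ranges lay on top of each other, and the log2 fold change was -0.07 (SE 0.12, 95% interval -0.34 to 0.20, edgeR adjusted p = 0.942). Cd79a gave 14 fragments in wild-type replicate 2 and 1 fragment each in wild-type replicate 3 and heterozygote-labelled replicate 1, with 0 in the other 5 libraries. Per length the Cd79b mean of 83.0 FPKM stood beside 0.125 FPKM for Cd79a in wild-type cells.

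The surrogate light chain, which pairs with the mu heavy chain in precursor B cells and is built from Vpreb1 and Igll1, was represented by one of its genes. Vpreb1 gave 12, 4, 20 and 60 fragments in wild-type libraries and 0, 4, 18 and 14 fragments under the heterozygote label. The highest value was that of wild-type replicate 4, and the remaining libraries of both genotypes overlapped. In the annotation 1 of the 7 Vpreb1 exons overlaps Top3b on the opposite strand, and a contribution of that gene was not tested. Igll1 had 0 fragments in all 8 libraries, although the genes lie 4417 bases apart on the minus strand of chromosome 16 (Igll1 at chr16:16860671-16863985 and Vpreb1 at chr16:16868403-16869255). The window before the Igll1 start (chr16:16863986-16864235) held 1 CpG and 1 CAGGTG, and that before Vpreb1 (chr16:16869256-16869505) held 2 CpG, 1 CAGGTG and 1 GAGGAA:
Vpreb1: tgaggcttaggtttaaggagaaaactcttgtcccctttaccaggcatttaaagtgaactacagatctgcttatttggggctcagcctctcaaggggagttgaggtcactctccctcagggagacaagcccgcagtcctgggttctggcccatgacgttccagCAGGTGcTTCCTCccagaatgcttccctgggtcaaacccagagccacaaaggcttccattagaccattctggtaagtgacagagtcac
Igll1: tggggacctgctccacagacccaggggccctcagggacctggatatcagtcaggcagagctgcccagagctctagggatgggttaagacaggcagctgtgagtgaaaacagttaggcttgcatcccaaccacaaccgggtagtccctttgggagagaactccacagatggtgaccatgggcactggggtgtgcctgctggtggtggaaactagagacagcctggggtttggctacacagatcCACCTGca

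Among the tested B members Vpreb1 averaged 1.07 ± 1.09 CPM in wild type and 0.485 ± 0.444 CPM under the heterozygote label (SD, n = 4 each). The difference was -1.13 on the log2 scale (SE 1.17, 95% interval -3.74 to 1.47, edgeR adjusted p = 0.909). Without wild-type replicate 4 it was -0.18 (edgeR unadjusted p 0.895), so that library carried most of the value. The related Vpreb3 gave 14, 12 and 1 fragments in wild-type replicates 2, 3 and 4 and 1 and 11 fragments in heterozygote-labelled replicates 3 and 4. It did not pass the filter on low counts and was not tested.

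Unlike Cd79b, the B lineage members Ebf1, Pax5, Ms4a1, Blk, Cd22 and Mzb1 were seen in 3 libraries at most. Ebf1, the factor that specifies the B lineage, gave 114 fragments in wild-type replicate 4, 2 and 13 in heterozygote-labelled replicates 1 and 3 and 0 in the other 5 libraries. Pax5, which commits cells to the B lineage, was at 0 in all 8. Ms4a1, encoding CD20, gave 6 fragments in wild-type replicate 4 alone, and the Src-family kinase gene Blk gave 7 in wild-type replicate 2 alone. Cd22, an inhibitory co-receptor, gave 1 fragment in each of heterozygote-labelled replicates 1 and 2, which is within the 3 that a count of 0 allows. Mzb1, a chaperone of antibody secretion, gave 12 fragments in heterozygote-labelled replicate 3 and 1 in wild-type replicate 4. None of these genes passed the filter on low counts, so no test of genotype was made.

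Early priming genes ranged from 0 fragments in every library to detection in every library, with a gap in level. The lowest library among Mef2c, Lsp1 and Bcl11a was at 91.9 CPM (Lsp1). The highest among the other early members was at 8.10 CPM (Satb1). Il7r, the receptor that carries survival signals in lymphoid progenitors, Ccr9, a homing receptor for the thymus, and Igll1 were at 0 in all 8 libraries, as was Rag1. Dntt, the polymerase that adds bases at antigen receptor junctions and an early mark of priming, gave 2 and 35 fragments in wild-type replicates 1 and 4, 10 in heterozygote-labelled replicate 2 and 0 in the other 5 libraries. Rag2 gave 55 fragments in wild-type replicate 4 and 0 elsewhere. Rag1 and Rag2 lie 5752 bases apart on opposite strands of chromosome 2, and the 55 Rag2 fragments came with 0 of Rag1. In the annotation 1 of the 2 Rag1 exons overlaps B230118H07Rik on the same strand, a gene with 1336 to 2011 fragments per library, and fragments that fell on both genes were not counted. For Rag2 the overlap with that gene is on the opposite strand, which stranded counting keeps apart.

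Of the early members present in every library, Mef2c and Bcl11a overlapped between genotypes with narrow spreads. Mef2c (ENSMUSG00000005583.16, chr13:83504034-83667080, plus strand), a MADS-box factor that promotes lymphoid over myeloid fate in progenitors, gave 497, 543, 530 and 498 CPM in the wild-type libraries. Under the heterozygote label it gave 460, 597, 578 and 643 CPM, of which replicate 1 was the lowest of all 8 libraries and the other 3 were the highest. The log2 fold change was 0.14 (SE 0.11, edgeR adjusted p = 0.871). Without heterozygote-labelled replicate 1 it was 0.24 (edgeR unadjusted p 0.0346, adjusted p 0.824) and without heterozygote-labelled replicate 4 it was 0.076 (unadjusted p 0.540). Bcl11a (ENSMUSG00000000861.15, chr11:24078056-24174123, plus strand) gave 108, 125, 149 and 131 CPM in wild type and 137, 154, 150 and 145 CPM under the heterozygote label, where wild-type replicate 3 was the one library that broke the separation. Its log2 fold change was 0.19 (SE 0.12, edgeR adjusted p = 0.850, exact permutation p = 0.0857), and without wild-type replicate 3 it was 0.27 (edgeR unadjusted p 0.0342, adjusted p 0.355). In that fit 12.5% of all genes had an unadjusted edgeR p under 0.05, in place of 5.66%. Groups did not overlap for 13.2% of all genes there, in place of 3.45%.

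Lsp1, an actin-binding protein of lymphocytes and other leukocytes, was the one member with an unadjusted p under 0.05. The gene (ENSMUSG00000018819.10) spans chr7:142460809-142494867 on the plus strand. Its level was 126, 143, 114 and 123 CPM in the wild-type libraries and 114, 91.9, 110 and 99.6 CPM under the heterozygote label. The lowest wild-type and the highest heterozygote-labelled library met at 114 CPM and all others were separate. Means were 126 ± 12.2 and 104 ± 10.3 CPM (SD, n = 4 each), a log2 fold change of -0.28 (SE 0.12, 95% interval -0.55 to -0.01, edgeR unadjusted p 0.0451, adjusted p 0.850). The exact permutation p was 0.0571. It did not pass, and 1 of 10 tested members stands beside 5.66% of all genes at that unadjusted threshold. After removal of trends on GC content and length the value was -0.05 (edgeR adjusted p = 0.976), and over all alternatives the adjusted p of Lsp1 ran from 0.318 to 1.00. Across genes, the deviation of a library correlated with GC content at 0.180, 0.232, -0.162 and 0.0403 in wild-type replicates 1 to 4 and -0.0988 to -0.0342 under the heterozygote label.

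Satb1, Il12rb1 and Ighm were weakly counted and varied widely between mice. Satb1 was at 1 CPM or more in every library, while Il12rb1 (2 fragments in wild-type replicate 3 and 1 in heterozygote-labelled replicate 2) and Ighm (2 in heterozygote-labelled replicate 2) fell within the 3 that a count of 0 allows. Satb1, a chromatin organiser that promotes lymphoid fate in stem cells, gave 2.11, 4.36, 1.43 and 1.36 CPM in wild type and 8.10, 2.87, 1.69 and 7.05 CPM under the heterozygote label. Replicates 1 and 4 under the heterozygote label, the females, lay above all wild-type libraries and replicates 2 and 3, the males, lay among them. The log2 fold change of 1.09 (SE 0.63, 95% interval -0.32 to 2.501, edgeR adjusted p = 0.850) did not pass. Il12rb1, a chain of the receptors for interleukin-12 and interleukin-23, ranged from 2 to 77 fragments in wild-type and from 1 to 78 in heterozygote-labelled libraries, and its log2 fold change was -0.30 (SE 1.15, edgeR adjusted p = 0.972). Ighm, the constant region of the immunoglobulin mu heavy chain, gave 80, 95, 93 and 40 fragments in wild type and 98, 2, 16 and 109 under the heterozygote label. The male heterozygote-labelled replicates 2 and 3 were thus the 2 lowest of the 8 and the female replicates 1 and 4 the 2 highest, and the log2 fold change was -0.30 (SE 0.90, edgeR adjusted p = 0.966). It was -0.99 with sex as a term and -1.04 with the replicate number as a block (edgeR unadjusted p 0.403 and 0.463). The sign of the Il12rb1 and Ighm differences turned when single libraries were left out.

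Within the sexes, with 2 libraries per genotype in each, 3 of the 10 tested members were separated in the same direction in both, beside 7.24% of all genes. In females Nkg7 averaged 262 CPM under wild type and 319 CPM under the heterozygote label, in males 358 and 475 CPM in the same order. Bcl11a averaged 120 and 141 CPM in females and 137 and 152 CPM in males, and Lsp1 124 and 107 CPM in females and 128 and 101 CPM in males. Ighm and Lck were separated in opposite directions, as were 3.74% of all genes. Ighm averaged 2.53 and 5.24 CPM in females and 4.52 and 0.497 CPM in males, and Lck 23.0 and 17.4 CPM in females and 9.86 and 15.5 CPM in males. In a fit with the interaction of sex and genotype the effects in Satb1, Ighm and Lck differed, male minus female, by -2.47 (edgeR unadjusted p 0.0529), -4.21 (unadjusted p 0.0140) and 1.06 (unadjusted p 0.104) on the log2 scale. These differences did not pass (edgeR adjusted p = 1.00 for each), and 0 of all genes were called (0%), with 3.04% at an unadjusted p under 0.05.

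**Figure D3:**
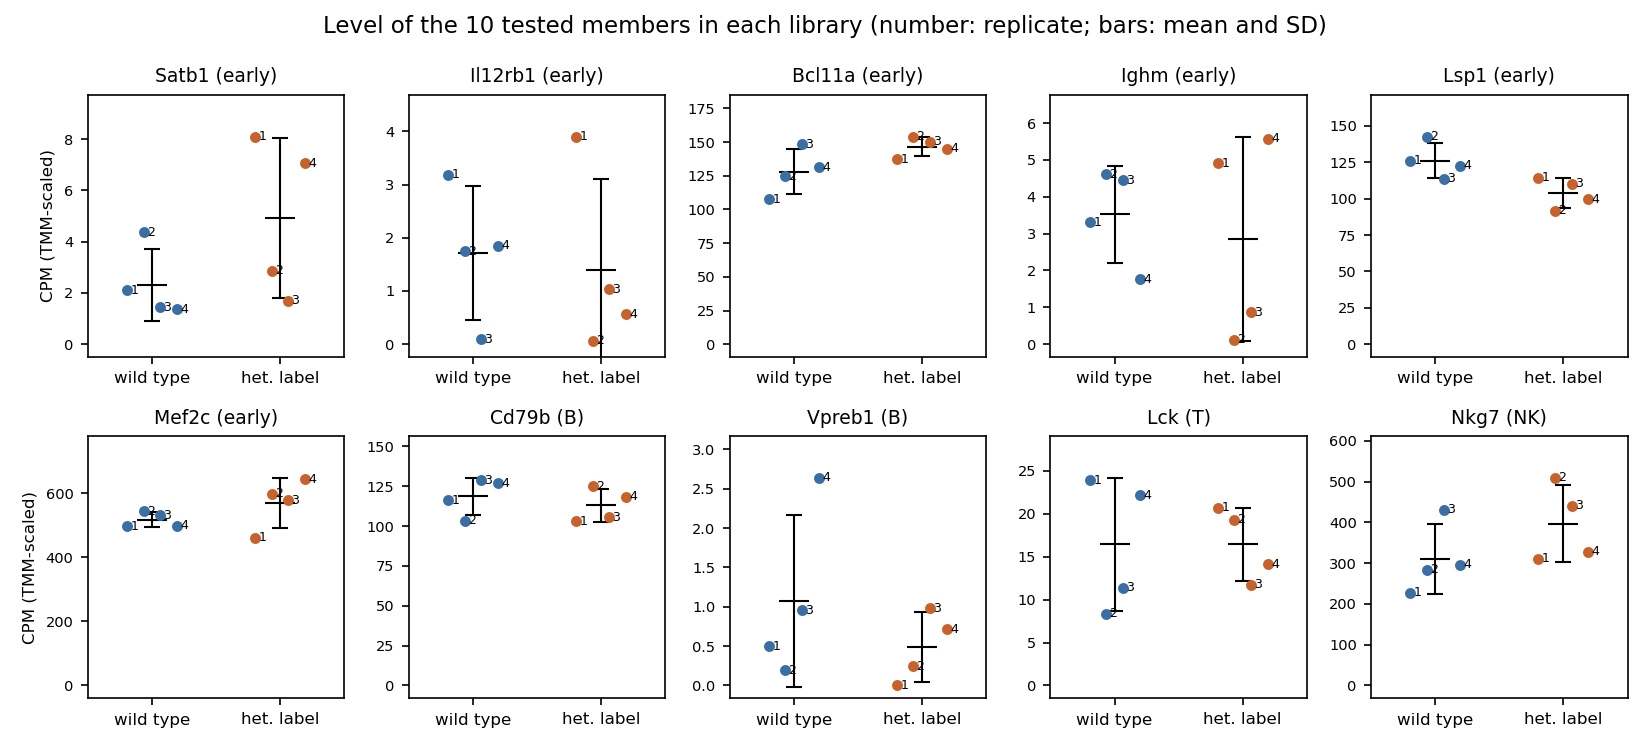
TMM-scaled CPM (linear axis that includes 0) of the 10 members that passed the filter on low counts, with 1 numbered point per replicate and bars for mean and SD of 4 libraries per genotype. In each panel at least 1 library of one genotype lies within the range of the other, and the points of Satb1, Il12rb1, Ighm, Vpreb1 and Lck spread most relative to their means.

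T lineage members were limited to Lck and traces of Cd3d and Cd2. Lck (ENSMUSG00000000409.14, chr4:129548344-129573641, minus strand) gave 23.9, 8.34, 11.4 and 22.2 CPM in wild type and 20.7, 19.3, 11.7 and 14.1 CPM under the heterozygote label. The heterozygote-labelled values all lay inside the wild-type range, and the means of 16.4 ± 7.74 and 16.5 ± 4.26 CPM (SD, n = 4 each) gave a log2 fold change of 0.00 (SE 0.37, 95% interval -0.83 to 0.83, edgeR adjusted p = 1.00). Cd2, an adhesion receptor of T and NK cells, gave 23 fragments in heterozygote-labelled replicate 1 and 0 in the other 7 libraries.

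The CD3 subunits, which carry the signal of the T cell receptor, differed among themselves. Cd3d gave 10 fragments in wild-type replicate 4 and 0 in the other 3 wild-type libraries, against 7, 4, 4 and 4 in heterozygote-labelled replicates 1 to 4. It was thus detected in 1 wild-type and 4 heterozygote-labelled libraries, with the highest count in the wild-type one, and it did not pass the filter for testing. Cd3g and Cd3e were at 0 in all 8 libraries. Cd3g and Cd3d stand head to head on chromosome 9 with 1354 bases between them (Cd3g at chr9:44969572-44980431, minus strand, and Cd3d at chr9:44981786-44987339, plus strand), and Cd3e lies 11400 bases beyond Cd3d. Within that gap the Cd3d window chr9:44981536-44981785 held 0 CpG, 1 CAGGTG and 2 GAGGAA, and the Cd3g window chr9:44980432-44980681 held 4 CpG, 2 CAGGTG and 1 AGATAA:
Cd3d: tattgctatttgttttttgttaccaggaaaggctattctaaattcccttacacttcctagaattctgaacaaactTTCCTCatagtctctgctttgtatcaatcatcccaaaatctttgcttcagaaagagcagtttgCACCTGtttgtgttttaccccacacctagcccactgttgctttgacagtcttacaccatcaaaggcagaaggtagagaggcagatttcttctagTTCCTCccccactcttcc
Cd3g: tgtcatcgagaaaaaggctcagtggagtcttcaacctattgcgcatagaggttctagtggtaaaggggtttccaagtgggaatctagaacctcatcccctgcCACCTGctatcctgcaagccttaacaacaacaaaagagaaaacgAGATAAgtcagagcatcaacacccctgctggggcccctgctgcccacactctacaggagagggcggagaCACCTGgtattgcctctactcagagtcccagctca

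Across the 10 tested members 0 were called by edgeR, DESeq2 or limma-voom, against 0%, 0.208% and 0% of all genes. In 5 members the log2 fold change was positive and in 5 negative, beside 52.0% negative over all 13992 genes, and 0 of 10 had groups that did not overlap, beside 3.45% of all genes. Over all genes 1.65% lay wholly above and 1.80% wholly below under the heterozygote label. The median log2 fold change was -0.07 over the 6 tested of 12 early members and -0.04 over the 4 tested of 17 B, T and NK members, beside -0.02 over all genes tested. The summed level of the early list was 739.5 to 820.9 CPM in wild-type and 728.9 to 900.5 CPM in heterozygote-labelled libraries, and that of the B, T and NK lists 367.7 to 572.9 and 436.6 to 654.6 CPM. The other 19 members did not pass the filter on low counts. In these bulk samples fewer cells of a type and less RNA per cell cannot be told apart.

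**Figure D4:**
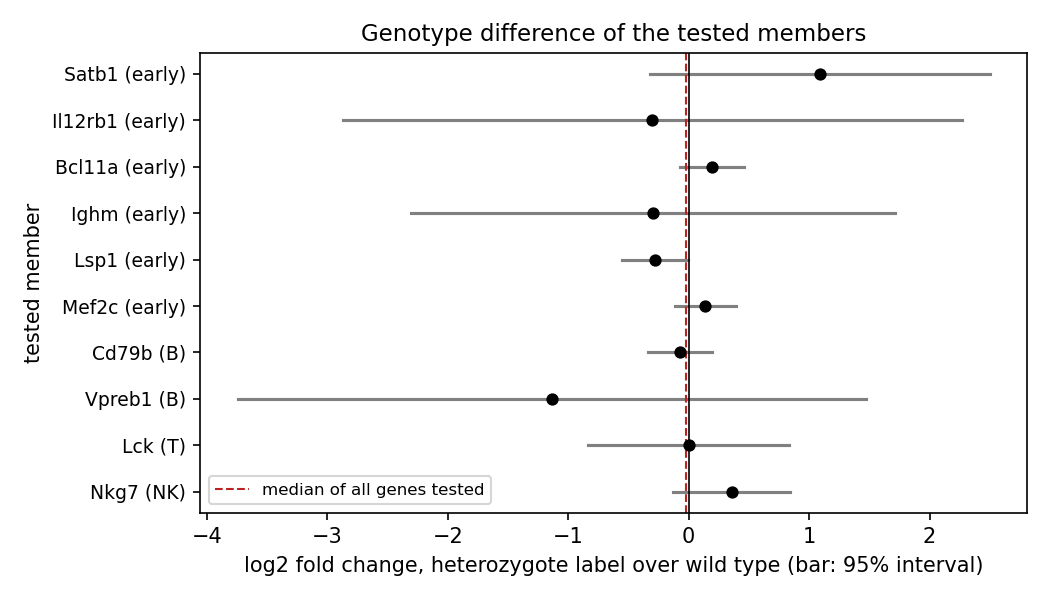
Log2 fold change, heterozygote label over wild type, of the 10 tested members, with dots for the edgeR estimate, bars for its 95% interval and a dashed line at the median of all genes tested (-0.02). The bars of Bcl11a, Lsp1, Mef2c and Cd79b are short and those of Il12rb1, Vpreb1 and Ighm span more than 3 log2 units, and the Lsp1 bar alone ends below 0, at -0.01.

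Members seen in only some libraries were most often highest in wild-type replicate 4, which held 22653131 fragments, near the top of the depth range. The deepest library, wild-type replicate 1 with 22861884 fragments, was highest for 0 of these 12 members. A relation to depth was not tested. How often wild-type replicate 4 was highest among all weakly counted genes was not counted. At least 1 fragment was found for 11, 13, 12 and 17 of the 29 members in the wild-type libraries, in replicate order, and for 14, 13, 14 and 12 under the heterozygote label. Of the 12 members seen in some libraries, 6 were highest in wild-type replicate 4 (Dntt, Rag2, Ms4a1, Ebf1, Vpreb1 and Cd3d), 3 in wild-type replicate 2 (Cd79a, Vpreb3 and Blk), 2 in heterozygote-labelled replicate 1 (Cd22 and Cd2, the former tied with replicate 2) and 1 in heterozygote-labelled replicate 3 (Mzb1). With wild-type replicate 4 left out 10 members were at 0 in every library in place of 8. That library nevertheless held 0 fragments of Cd79a, Il7r, Rag1, Pax5 and Igll1.

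Counts concentrated in 1 library were common among weakly counted genes in general. Of protein-coding genes with 1 to 9 fragments in all, 70.3% had at least 90% of them in 1 library, of those with 10 to 49 fragments 39.5%, and of those with 50 to under 200 fragments 3.75%. Among members the same held for 2 of 3, 2 of 6 and 1 of 3. The last of these is Rag2, with all of its 55 fragments in wild-type replicate 4, and Ebf1 came near with 88.4% of 129 fragments there. Read as a description of these libraries, the scatter of the other weakly counted members was of a kind seen in many genes of that depth.

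Many genes of other mature lymphocytes were also at or near 0. Of 12 antigen receptor constant genes 7 were at 0 in all 8 libraries, all of them T cell receptor genes, and Igkc, the kappa light chain, was the one tested (1.32 ± 1.43 and 2.08 ± 1.96 CPM, SD, n = 4 each). Of 23 other mature lymphocyte markers 11 were at 0 in every library, among them Cd5, Cd8a and Cd8b1. Cd72, a B cell co-receptor, was among the 5 tested and gave 60.3, 81.8, 67.8 and 57.8 CPM in wild type and 81.1, 106, 102 and 67.8 CPM under the heterozygote label, with overlap and a log2 fold change of 0.41 (SE 0.18, edgeR unadjusted p 0.0460, adjusted p 0.850). Of 9 plasma cell markers 3 were tested and 0 called, with negative values for Xbp1, Jchain and Sdc1. Of 10 plasmacytoid dendritic cell markers 3 were at 0 in all 8 libraries, among them the defining Siglech. In every library 4 were detected, among them Tcf4 and Irf8. The list summed to 199.3 to 231.4 CPM in wild-type and 227.7 to 262.7 CPM in heterozygote-labelled libraries. Of 4 tested 3 were positive, 1 was negative and 0 were called. All heterozygote-labelled libraries lay above the wild-type ones for 1 of them, beside 1.65% of all genes. The granulocyte and monocyte markers Camp, Ctsg, Lyz2 and 9 more summed to 555.0 to 696.2 CPM in wild-type and 521.1 to 691.4 CPM in heterozygote-labelled libraries, with 10 of 12 tested and 0 called. Their part in the member values was not tested. Erythroid markers such as Epor, Hbb-bs and Hba-a1 summed to 26.6 to 53.4 and 17.8 to 48.9 CPM, with 6 of 8 tested, 5 of them negative and 0 called.

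Regulators that specify lymphoid fate were in contrast widely transcribed. Of 32 such genes 24 were tested, 15 with a positive and 9 with a negative log2 fold change (median 0.09) and 0 called, while the T lineage factors Tcf7 and Bcl11b and the B lineage factor Ikzf3 were at 0 in all 8 libraries. Flt3, the receptor that marks multipotent progenitors on the lymphoid path, gave 5.16, 8.72, 8.12 and 6.02 CPM in wild type and 17.8, 6.66, 13.7 and 13.3 CPM under the heterozygote label. Heterozygote-labelled replicate 2 lay within the wild-type range and the other 3 above it, with a log2 fold change of 0.88 (SE 0.35, edgeR unadjusted p 0.0323, adjusted p 0.850). Gata3, needed for T cells, gave 69.98, 60.2, 24.7 and 33.2 CPM in wild type and 28.5, 29.7, 22.7 and 30.8 CPM under the heterozygote label, so the wild-type mean of 47.0 CPM rests on replicates 1 and 2. Tox, a nuclear factor of T and NK development, averaged 47.2 ± 9.97 and 28.2 ± 12.6 CPM (SD, n = 4 each), and both genes had a log2 fold change of -0.75 with an edgeR adjusted p of 0.850.

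Partners of the member receptors were mostly present, but Il2ra, the alpha chain that joins Il2rb in the interleukin-2 receptor, and Zap70, the kinase recruited by the T cell receptor, were at 0 in all 8 libraries, as Il7r and Il2rb were. Of 22 genes listed 19 were tested, 9 positive and 10 negative (median -0.005, 0 called). Il2rg, the common chain that joins Il7r and Il2rb in their receptors, was abundant at 238 ± 48.1 and 309 ± 14.6 CPM (SD, n = 4 each), with a log2 fold change of 0.38 (SE 0.14, edgeR unadjusted p 0.0237, adjusted p 0.850). Jak3, the kinase that binds the common chain, gave 3.02, 9.35, 3.54 and 6.55 CPM in wild type and 2.20, 2.87, 2.12 and 1.33 CPM under the heterozygote label. All 4 heterozygote-labelled libraries lay below the wild-type ones, with a log2 fold change of -1.40 (SE 0.50, edgeR unadjusted p 0.0200, adjusted p 0.850). Jak3 was the 1 of 19 tested partners with groups that did not overlap. Over all genes 1.80% lay wholly below and 3.45% did not overlap in either direction. The cytokine gene Il7 averaged 22.6 ± 9.27 and 31.9 ± 5.36 CPM (SD, n = 4 each) and did not pass.

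Repair proteins that act with Rag1, Rag2 and Dntt serve all cells and ranged from abundant to weakly counted. Hmgb1 averaged 1610 CPM in wild type, while Dclre1c, Nhej1, Lig4 and Poll averaged 9.27, 6.05, 4.90 and 2.09 CPM, and Polm had 83 fragments in all, 64 of them in wild-type replicate 1, with 0 in 4 libraries. Of 12 listed genes 11 were tested, 7 positive and 4 negative (median 0.11), and 0 were called or reached an unadjusted p of 0.05. Xrcc4, a subunit of the end-joining ligase complex, averaged 48.3 ± 11.3 and 64.0 ± 15.6 CPM (SD, n = 4 each), with a log2 fold change of 0.40 (SE 0.23, edgeR adjusted p = 0.850). Hmgb1, a cofactor of the Rag recombinase, and Xrcc5, the Ku80 subunit, differed by 0.20 and 0.23 on the log2 scale.

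**Figure D5:**
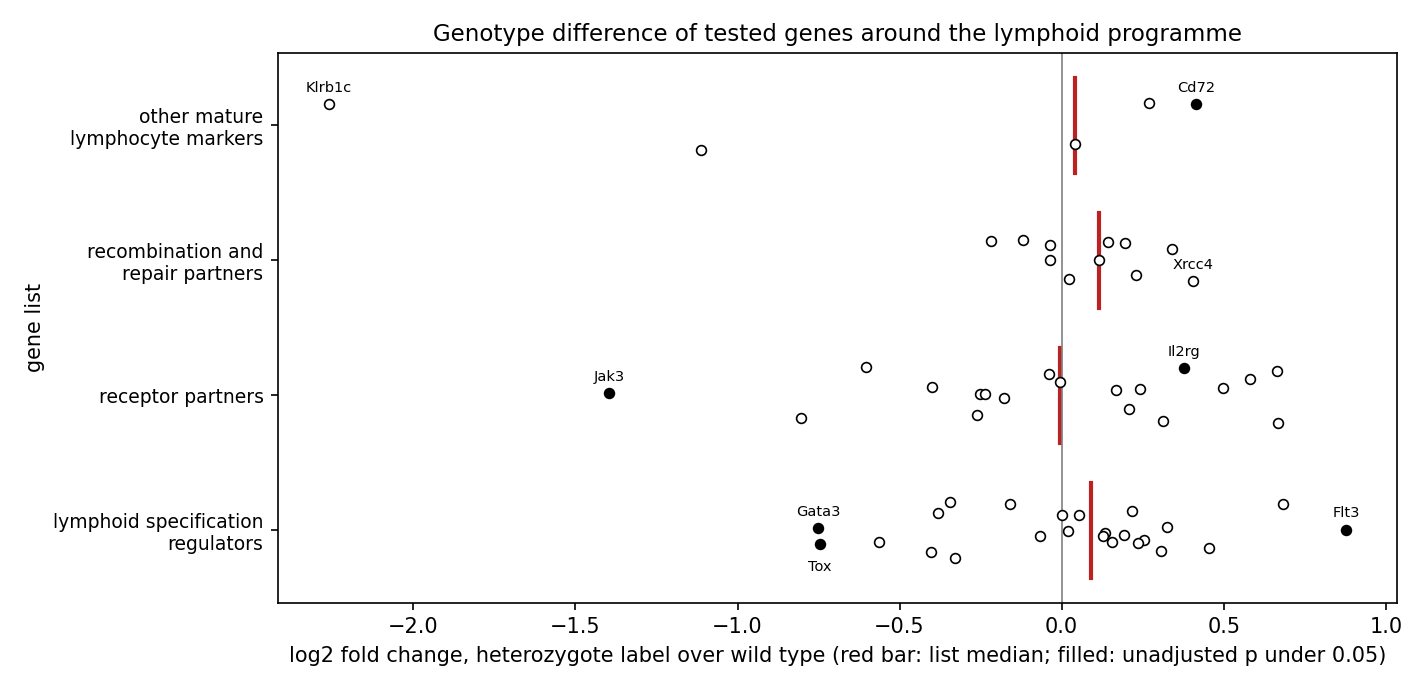
Log2 fold change, heterozygote label over wild type, of tested genes in 4 lists around the lymphoid programme, with 1 point per gene, filled where the unadjusted edgeR p is under 0.05, and a red bar at each list median (vertical scatter within a list carries no value). The medians lie between -0.005 and 0.11, and Flt3, Il2rg and Cd72 on the right and Jak3, Gata3 and Tox on the left are the filled points.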

How the data were processed

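Per the labels' protocols, ribosomal RNA was removed from total RNA before strand-specific library preparation and paired-end sequencing. The submitters' processing notes name STAR 2.5.1b and GRCm38. The deposited values are raw fragment counts per gene, made by the authors with featureCounts in reverse-stranded mode on GENCODE M17, per the file headers, which name version 1.6.2 where the notes name 1.5.1. Fragments that map to several places or genes were left out, which lowers counts of near-identical or same-strand overlapping genes.

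Symbols came from GENCODE M21. Genotypes were compared with edgeR 4.0.16 (R 4.3.3) by filterByExpr, TMM scaling, a robust quasi-likelihood fit with no term but genotype, and Benjamini-Hochberg adjustment over all 13992 genes (threshold 0.05). CPM and FPKM used TMM library sizes, and FPKM the deposited exon length. Exact permutation tests covered 70 assignments of the 8 libraries, where 0.0286 is the smallest p. The fits were tested on simulated data. No block is stated in the design, and same-numbered libraries were not treated as pairs. Their deviations correlated at 0.00565 to 0.0961, against -0.0844 to 0.0496 for libraries of different number. These values do not exclude pairing, and replicate number goes with sex in both genotypes. Alternatives were other scalings, filters and tests (DESeq2 1.42.0, limma 3.58.1), a replicate block, a sex term and each library left out. Removal of GC and length trends, member presence with each library left out, and the interaction of sex and genotype were added after seeing the data.

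The members and lists were chosen with earlier results of these data known. All members are named. Of other lists up to 3 genes are named, by smallest unadjusted p among those averaging at least 1 CPM, and genes at 0 or in single libraries were named after their values were seen. A few listed genes are not reported here.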

Additional observations from a re-analysis of the deposited data

Results flagged for a closer look

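In 14 of 37 groups of 4 libraries with any fragments of a member, 1 library stood apart from the other 3 in CPM by more than Dixon's limit for 4 values, and in 10 of these it did so on the log2 CPM scale too. Chance flags about 1 in 20 groups of well-behaved values, and groups with 3 values at or near 0 are flagged readily. All 14 lay above the rest of their group and 6 of them were in wild-type replicate 4. There Ebf1 stood at 5.01 CPM (114 fragments), Rag2 at 2.42 CPM (55 fragments), Dntt at 1.54 CPM (35 fragments), Cd3d at 0.440 CPM (10 fragments), Ms4a1 at 0.264 CPM (6 fragments) and Mzb1 at 0.0440 CPM (1 fragment). In wild-type replicate 2 Cd79a stood at 0.679 CPM (14 fragments) and Blk at 0.339 CPM (7 fragments). Under the heterozygote label Cd2 stood at 1.150 CPM (23 fragments) and Cd79a at 0.050 CPM (1 fragment) in replicate 1, Dntt at 0.611 CPM (10 fragments) in replicate 2, Ebf1 at 0.708 CPM (13 fragments) and Mzb1 at 0.654 CPM (12 fragments) in replicate 3, and Vpreb3 at 0.562 CPM (11 fragments) in replicate 4. Those that passed in CPM alone were Dntt and Cd79a in wild type and Ebf1 and Vpreb3 under the heterozygote label. The single fragments of Mzb1 and Cd79a are within the 3 that a count of 0 allows.

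In Ighm and Lck both heterozygote-labelled libraries of one sex lay above the wild-type libraries of that sex and both of the other sex lay below. The genotype difference, male minus female, was -4.21 on the log2 scale for Ighm and 1.06 for Lck (edgeR adjusted p = 1.00 for each interaction of sex and genotype).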

How the results depend on the processing

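Under every alternative run, 0 members were called by adjusted p. The medians of both member groups moved by less than the spread between libraries (SD 0.28 and 0.31), which is wider than the medians themselves. The early median, -0.07 as reported, ran from -0.14 (library size scaling) to 0.13 (without wild-type replicate 1). The B, T and NK median, -0.04 as reported, ran from -0.16 (without wild-type replicate 2) to 0.14 (GC and length trend removed). The sign of each median thus turned under some alternatives. DESeq2 called 29 genes where edgeR called 0. The number of members with an unadjusted p under 0.05, 1 as reported (Lsp1), was 0 with RLE scaling, upper quartile scaling, DESeq2 and removal of the GC and length trend, and 0 to 3 with single libraries left out. With the replicate block or the sex term the 1 member was Nkg7 (p 0.0469 and 0.0492) and not Lsp1 (p 0.0816 and 0.0553). Without wild-type replicate 2 or heterozygote-labelled replicate 3 it was Satb1 (p 0.0393 and 0.0470). It was 3 without wild-type replicate 3 (Bcl11a, Lsp1 and Nkg7), where 12.5% of all genes reached that p in place of 5.66%, and 2 without heterozygote-labelled replicate 1 (Lsp1 and Mef2c), beside 5.89% of all genes. Members whose groups did not overlap, 0 as reported, numbered 1 with upper quartile scaling (Lsp1, beside 3.40% of all genes) and 0 to 3 with single libraries left out. They were the same 3 members without wild-type replicate 3 (13.2% of all genes) and the same 2 without heterozygote-labelled replicate 1 (6.50%). With single libraries left out the log2 fold change of Lck, 0.00 as reported, ran from -0.21 to 0.24, that of Il12rb1 from -1.61 to 0.18 and that of Ighm from -0.84 to 0.10 (-1.04 with the block and -0.99 with the sex term). Ighm turned sign without heterozygote-labelled replicate 2 (0.10) or 3 (0.0039), Il12rb1 without wild-type replicate 1 (0.18) or heterozygote-labelled replicate 2 (0.09), and Lck without wild-type replicates 2 or 3 or heterozygote-labelled replicates 1 or 2. With library size scaling Lck was -0.062, and with the GC and length trend removed Il12rb1 was 0.067 and Cd79b 0.046. The cause of these turns was not tested. Scaling by library size alone moved the median of all genes to -0.08. With the replicate number as a block, 0 genes and 0 members were called, and 946 genes had an unadjusted p under 0.05 in place of 792. The 19 members that did not pass the filter on low counts were not tested, and for them a library at 0 allows up to 3 fragments.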
